A study of Mus musculus with 6 samples.

Results

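The lncRNA gene Gm20559 on mouse chromosome 6 was represented by a cluster of long non-coding RNA (lncRNA) features, the 4 described here all with lower levels in RAW264.7 macrophages given extract of enoxaparin sodium bone cement than in those given extract of plain bone cement. The 4 features described are NONMMUT123372.1, ENSMUST00000201976, NONMMUT123377.1 and ENSMUST00000202514, of 24817 lncRNA features in the deposited table. They were chosen by name, with their measured values known: the authors' deposited table calls all 4 lower, with log2 fold changes of -1.51, -2.54, -1.45 and -1.69 in that order. The authors' deposited table also calls 2 other features of the interval lower, NONMMUT055555.2 (-1.43) and NONMMUT121732.1 (-3.32). The levels and fold changes of the 4 are therefore given as a description, without a test.

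RAW264.7 is a mouse macrophage line, and all 6 libraries came from cells that had been stimulated with lipopolysaccharide (LPS, a bacterial cell wall component that activates macrophages) for 24 h before the medium was replaced by a cement extract. The LPS_ES_PMMA group (n = 3) received extract of poly(methyl methacrylate) cement containing enoxaparin sodium, a heparin derivative, and the LPS_PMMA group (n = 3) received extract of cement without it. The titles and treatment labels of the LPS_PMMA libraries give that name, while their descriptions and table columns read LPS alone; the group is called LPS_PMMA here. The length of exposure to extract is not stated in the labels, every library carries the LPS stimulus, and nothing in the labels says that replicates were separate cultures, so the spread between them may be technical.

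LncRNAs are transcripts without a recognised protein product, many of them spliced and low in abundance. One gene often yields several isoforms, among them transcripts that keep an intron, and databases such as Ensembl and NONCODE list these as separate features that share exons and hence reads. The nearest protein-coding gene, Samd9l, encodes a cytoplasmic protein that is induced by interferons and restricts poxviruses. LPS is known to induce type I interferon and, through it, many such genes in macrophages.

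On mm10 the listed interval, chr6:3333411-3346126, spans 12716 bp and lies within Gm20559 (minus strand, 3333194 to 3346128 in GENCODE M21). Inside it the annotation also places Gm43198, a single model on the plus strand, and Gm43197 on the minus strand. The deposited table ties NONMMUT123372.1 and ENSMUST00000201976 to Gm43198 as exonic antisense features and calls the other 2 intergenic; by position and strand the antisense features fall within Gm20559. Of the 6 annotated Gm20559 transcripts, 3 are listed in the table. Samd9l (minus strand, 3372257 to 3399572) lies 26128 bp beyond Gm20559, followed by Hepacam2 at 110970 bp and Vps50 at 152256 bp from the interval. Positions were read on mm10; GRCm39 was not used here.

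The 4 features cover different parts of the gene. NONMMUT123372.1 is an unspliced block of 2627 nt at the 3′ end (3333411 to 3336037). ENSMUST00000201976 is a spliced transcript of 670 nt whose 4 exons, of 198, 79, 127 and 266 nt, run across nearly the whole gene (3334229 to 3346050). NONMMUT123377.1 (1512 nt, 3341001 to 3346126) and ENSMUST00000202514 (1575 nt, 3344524 to 3346098) lie at the 5′ end, and ENSMUST00000202514 is annotated as a retained intron with a single exon. ENSMUST00000201976 shares 393 of its exonic bases (58.7%) with NONMMUT123372.1 and 198 (29.6%) with ENSMUST00000202514, whereas NONMMUT123372.1 and ENSMUST00000202514 share 0. The features are therefore not independent measurements of the gene. The exons of NONMMUT123377.1 are not given by the files.

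The sequences at which spliced and unspliced forms part lie at the ends of exon 1 and exon 3, and are shown for that reason. Each line gives 25 bases up to the exon's end in lower case and the 25 that follow in the transcript in capitals, on the minus strand of mm10, from the GENCODE M21 transcripts. Exon 1 ends at 3345853 and exon 3 at 3335762. The splice from exon 1 to exon 2 is found in ENSMUST00000201976 and also in ENSMUST00000201831 and 3 other annotated Gm20559 transcripts; the splice from exon 3 to exon 4 is annotated in ENSMUST00000201976 alone of the 6. The retained intron (chr6:3345828-3345877) belongs to ENSMUST00000202514, and the unspliced end of exon 3 (chr6:3335737-3335786) is that of ENSMUST00000201831 and lies within NONMMUT123372.1.
spliced exon 1 to 2: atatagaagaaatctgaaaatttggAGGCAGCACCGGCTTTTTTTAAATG
retained intron: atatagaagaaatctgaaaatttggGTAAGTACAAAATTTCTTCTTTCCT
spliced exon 3 to 4: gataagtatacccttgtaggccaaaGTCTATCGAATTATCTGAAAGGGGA
unspliced exon 3: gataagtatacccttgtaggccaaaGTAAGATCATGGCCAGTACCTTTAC
After the shared bases the unspliced forms continue into GTAAG, the letters of a 5′ splice site. A read that lies within a shared exon alone cannot be given to 1 isoform.

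The 5′ end of Gm20559 is a near copy of the 5′ end of Samd9l. The promoter windows, from 250 bases before to 50 bases after the RefSeq transcription start, are shown because these letters recur in both; they are from RefSeq on GRCm38.p6 (mm10), minus strand, chr6:3346092-3346391 for Gm20559 and chr6:3399522-3399821 for Samd9l. Capitals mark a 17-base run around GAAANNGAA that both share.
Gm20559 promoter: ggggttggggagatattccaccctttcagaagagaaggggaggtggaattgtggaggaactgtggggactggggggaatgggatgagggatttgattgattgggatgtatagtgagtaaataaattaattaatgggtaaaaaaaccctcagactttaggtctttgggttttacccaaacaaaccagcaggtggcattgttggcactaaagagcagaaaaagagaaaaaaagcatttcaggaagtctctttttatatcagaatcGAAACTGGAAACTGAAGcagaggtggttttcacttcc
Samd9l promoter: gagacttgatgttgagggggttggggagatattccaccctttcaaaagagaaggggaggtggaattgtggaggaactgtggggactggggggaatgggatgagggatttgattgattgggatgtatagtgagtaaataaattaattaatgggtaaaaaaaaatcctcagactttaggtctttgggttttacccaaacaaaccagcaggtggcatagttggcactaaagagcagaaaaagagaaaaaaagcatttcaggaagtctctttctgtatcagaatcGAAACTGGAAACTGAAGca
A local alignment paired 539 bases of Gm20559 (3345853 to 3346391) with 538 bases of Samd9l (3399268 to 3399805). Of its 542 columns, 521 were identical (96.1%), 14 were mismatched and 7 were gaps. Upstream of the Gm20559 start the identity was 98.0% over 252 columns, and the longest identical run was 108 bases. The alignment reached the edge of the Gm20559 promoter window on one side and the end of Samd9l exon 1 on the other, so its full length was not measured.

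**Figure D1:**
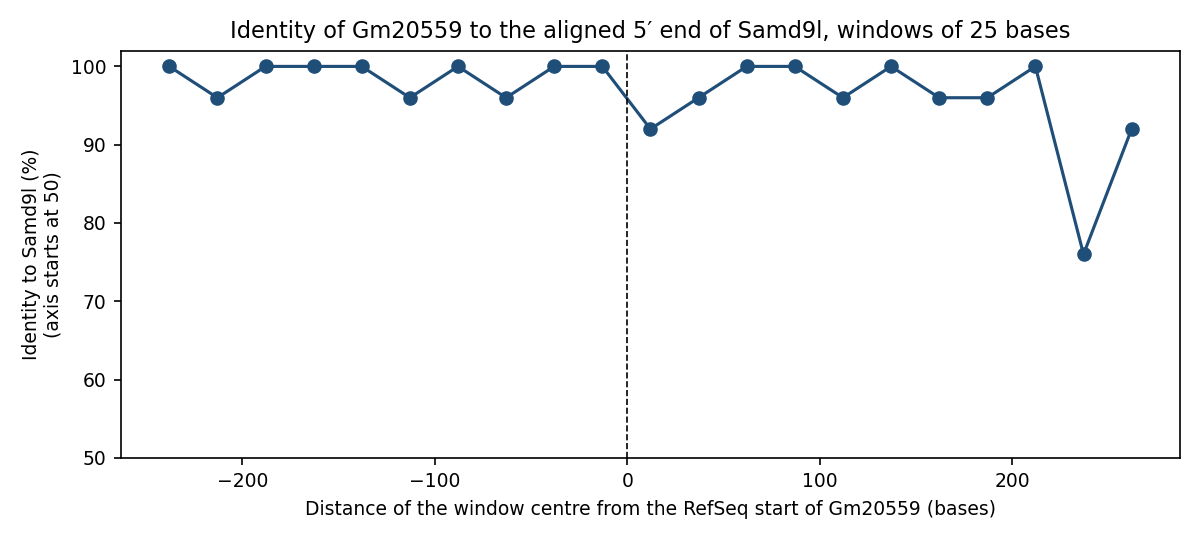
Percent of bases identical between Gm20559 and Samd9l (y axis) in windows of 25 bases (axis from 50%), by distance from the RefSeq start of Gm20559 in bases (x axis, dashed line at the start). Identity was 92 to 100% in every window apart from 1, centred 237 bases after the start, at 76%.

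Exon 1 of ENSMUST00000201976 (chr6:3345853-3346050, minus strand, GENCODE M21) is shown because it is the part of the listed transcript that is alike in Samd9l; capitals mark the bases that differ from Samd9l exon 1 or have no partner there.
Gm20559 exon 1: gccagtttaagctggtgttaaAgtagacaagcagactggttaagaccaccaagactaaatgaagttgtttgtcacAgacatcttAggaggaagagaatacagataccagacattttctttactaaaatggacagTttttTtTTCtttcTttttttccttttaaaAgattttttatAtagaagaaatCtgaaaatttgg
This exon was 93.9% identical to Samd9l exon 1, with 8 mismatched bases and 4 gap columns, and its longest identical run was 53 bases. Whether reads of that length or shorter were placed at Gm20559, Samd9l or both depends on the authors' aligner, which neither the labels nor the files name. The deposited table lists no feature over Samd9l, and protein-coding transcripts were not analysed here.

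Letters known from interferon and inflammatory response elements were searched on both strands of the 32817 RefSeq promoter windows of 300 bases. The core of an interferon-stimulated response element (GAAA, any 2 bases, GAAA) was in 3.43% of all windows and in neither Gm20559 nor Samd9l. The NF-kB core (GGGA, any 4 bases, CC; 20.7% of windows), the STAT core (TTCNNNGAA, 8.29%) and the AP-1 core (TGANTCA, 7.81%) were likewise in neither. The shorter GAAANNGAA, which was chosen after the sequences had been seen and is contained in the first of these, was in 8.55% of windows and had 1 match in each gene, 20 bases after the start of Gm20559 and 38 bases after that of Samd9l. The 17-base run marked above was also chosen after the sequences had been seen, from within the near copy of the 2 genes. It was present in 4 windows (0.0122%), all of them of Gm20559 or Samd9l. Given that choice, this share does not measure how rare a shared element is. A match of letters is a description, not a site, and no match says only that these letters are not in the window.

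Other parts of the gene also had close copies among annotated transcripts. At 90% identity or more over at least 100 bases, ENSMUST00000201976 matched transcripts of 6 other genes over 590 of its bases (88.1%). All 2478 bases of NONMMUT123372.1 that could be compared were covered by matches to 13 other genes, such as Vmn2r11 (95.8%) and Zfp619 (93.7%), both on the opposite strand, and Gm45104 (92.3% over 1318 columns). ENSMUST00000202514 matched Samd9l alone, over 249 of its bases (15.8%). Only annotated transcripts were searched, so copies of the rest of it in introns or between genes could not be found. NONMMUT123377.1, whose exons are not known, was not compared. How reads that match several places were counted is not stated in the labels or files, so the counts of all 4 features are uncertain in this respect. For ENSMUST00000202514 this concerns the 249 bases that matched Samd9l, and it had few reads. The span of NONMMUT123377.1 includes exon 1 of ENSMUST00000201976, which is alike in Samd9l. Whether reads of Samd9l entered the counts of these features was not tested.

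The libraries held 3261653, 1123551 and 3070657 counts over all lncRNA features in LPS_ES_PMMA 1 to 3, against 3697638, 3249485 and 2877523 in LPS_PMMA 1 to 3. Scaled by TMM (trimmed mean of M values, which sets libraries to a common level by their typical feature), the totals, in units of 1e+06 counts, were 4.12, 1.97 and 2.97 in LPS_ES_PMMA 1 to 3, against 2.03, 2.54 and 2.77 in LPS_PMMA 1 to 3; CPM below are counts per 1e+06 of these. With this scaling 3 counts in a library correspond to 0.729 to 1.52 CPM. Across 8873 features with enough reads to test, edgeR's quasi-likelihood test called 422 (4.76%) at a Benjamini-Hochberg adjusted p of 0.05, of which 229 (2.58%) were lower and 193 (2.18%) higher in LPS_ES_PMMA. The table holds lncRNAs, so macrophage identity could be checked only through 9 features tied to 5 of 9 macrophage genes: their summed level was 98.6 to 183 CPM in LPS_ES_PMMA and 115 to 166 CPM in LPS_PMMA, and none of the 3 tested was called. Lyz2, Spi1 and Mrc1 were among those with no tied feature. Much of the summed level came from NONMMUT010436.2, at 104 ± 42.7 CPM in LPS_ES_PMMA and 71.8 ± 26.6 CPM in LPS_PMMA (SD, n = 3 each). This feature is listed as exonic antisense to Eif4a1 and was tied to Cd68 by position alone, so the check of identity is weak. MSTRG.25685.1, antisense to Adgre1, went the other way, at 39.0 ± 5.69 CPM in LPS_ES_PMMA and 57.3 ± 6.29 CPM in LPS_PMMA (SD, n = 3 each). Its log2 fold change was -0.55 (edgeR adjusted p = 0.238). Those of NONMMUT010436.2 and NONMMUT140491.1, the other features tested, were 0.53 and 0.58. The sum does not show these opposite directions. Among 6 genes of other cell types, 6 features were tied to Krt8, Cd3e and Col1a1, and none to Pecam1 or Alb, with a summed level of 56.6 to 70.7 CPM in LPS_ES_PMMA and 32.0 to 35.0 CPM in LPS_PMMA; nearly all of it came from NONMMUT096548.1 near Krt8, whose log2 fold change was 0.85 (edgeR adjusted p = 0.0880). The part of these features in the values below was not tested.

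All 4 features passed the filter on low counts. In every one, each LPS_ES_PMMA library lay below each LPS_PMMA library in CPM, a pattern that 14.6% of all tested features shared, and also in FPKM (a level per length and library size, as deposited), where 5.89% did. The same held for the deposited counts without scaling, for which the share over all tested features was not computed. The 3′ block NONMMUT123372.1 had most of the reads and the spliced ENSMUST00000201976 had the largest fold difference of the 4. Since these values chose the features, nothing is read from the counts against that background.

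**Figure D2:**
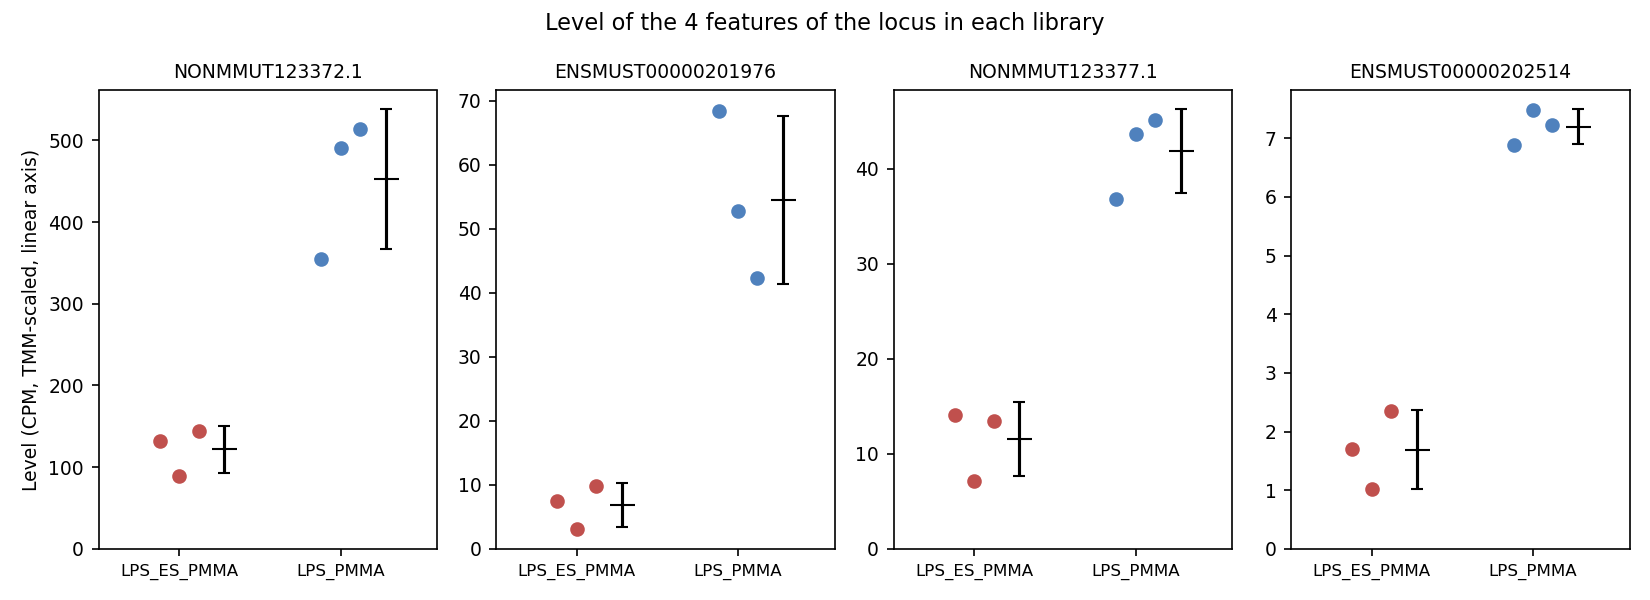
Level of each of the 4 features in each library in TMM-scaled CPM (y axis, linear, from 0 and with its own range in each panel), with LPS_ES_PMMA left of LPS_PMMA; points are libraries 1 to 3 in order, and bars beside them are the mean ± SD of 3 libraries. In each panel the 3 LPS_ES_PMMA libraries sit below the 3 LPS_PMMA libraries, and LPS_ES_PMMA 2 is the lowest.

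NONMMUT123372.1, the unspliced 3′ block, had 542, 177 and 427 reads in LPS_ES_PMMA 1 to 3, against 721, 1246 and 1422 reads in LPS_PMMA 1 to 3. In CPM these were 132, 89.7 and 144 in LPS_ES_PMMA, against 354, 490 and 513 in LPS_PMMA. The gap between the highest LPS_ES_PMMA and the lowest LPS_PMMA library was wide, at 211 CPM. The means were 122 ± 28.4 CPM in LPS_ES_PMMA and 453 ± 85.9 CPM in LPS_PMMA (SD, n = 3 each), and the fitted log2 fold change was -1.89 (SE 0.29), or 3.72-fold lower.

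ENSMUST00000201976, the spliced transcript, had 31, 6 and 29 reads in LPS_ES_PMMA 1 to 3, against 139, 134 and 117 reads in LPS_PMMA 1 to 3. Its CPM values were 7.53, 3.04 and 9.77 in LPS_ES_PMMA, against 68.3, 52.7 and 42.2 in LPS_PMMA. No LPS_ES_PMMA library came within 32.5 CPM of an LPS_PMMA library. The means were 6.78 ± 3.43 CPM in LPS_ES_PMMA and 54.4 ± 13.1 CPM in LPS_PMMA (SD, n = 3 each), with a log2 fold change of -2.97 (SE 0.43), or 7.82-fold lower.

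NONMMUT123377.1, at the 5′ end, had 58, 14 and 40 reads in LPS_ES_PMMA 1 to 3, against 75, 111 and 125 reads in LPS_PMMA 1 to 3. Its CPM values were 14.1, 7.09 and 13.5 in LPS_ES_PMMA, against 36.9, 43.7 and 45.1 in LPS_PMMA. The LPS_PMMA libraries lay close together, and LPS_ES_PMMA 2 stood below the rest of its group. The means were 11.6 ± 3.87 CPM in LPS_ES_PMMA and 41.9 ± 4.41 CPM in LPS_PMMA (SD, n = 3 each), with a log2 fold change of -1.84 (SE 0.32), or 3.58-fold lower.

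ENSMUST00000202514, the retained-intron form, had 7, 2 and 7 reads in LPS_ES_PMMA 1 to 3, against 14, 19 and 20 reads in LPS_PMMA 1 to 3. Its CPM values were 1.70, 1.01 and 2.36 in LPS_ES_PMMA, against 6.88, 7.48 and 7.22 in LPS_PMMA. The LPS_ES_PMMA values were near the level of 3 counts in a library, so the size of the difference rests on few reads. The means were 1.69 ± 0.673 CPM in LPS_ES_PMMA and 7.19 ± 0.298 CPM in LPS_PMMA (SD, n = 3 each), with a log2 fold change of -2.02 (SE 0.40), or 4.05-fold lower.

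Summed over the 4 features, the locus had 155, 101 and 169 CPM in LPS_ES_PMMA 1 to 3, against 467, 594 and 608 CPM in LPS_PMMA 1 to 3. The log2 fold change of the sum was -1.97 (SE 0.29), or 3.92-fold lower, while the median over all tested features was 0.03. The features held 0.0164 to 0.0196% of a library's counts in LPS_ES_PMMA and 0.0257 to 0.0585% in LPS_PMMA. The scaling sets part of the size: with deposited column totals and no TMM factors the log2 fold change of the sum was -1.28 and the median of all features 0.80, and with the totals implied by the FPKM values they were -1.58 and 0.46. Set against the median of all features, the sum was lower by 1.78 to 2.20 on the log2 scale in every setting run. The limma settings, which include the 2.20, summed FPKM in place of counts, so shorter features weigh more there. With counts the furthest value was -2.18, without LPS_ES_PMMA 3. In bulk RNA, fewer cells with the transcript and less transcript per cell cannot be told apart.

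**Figure D3:**
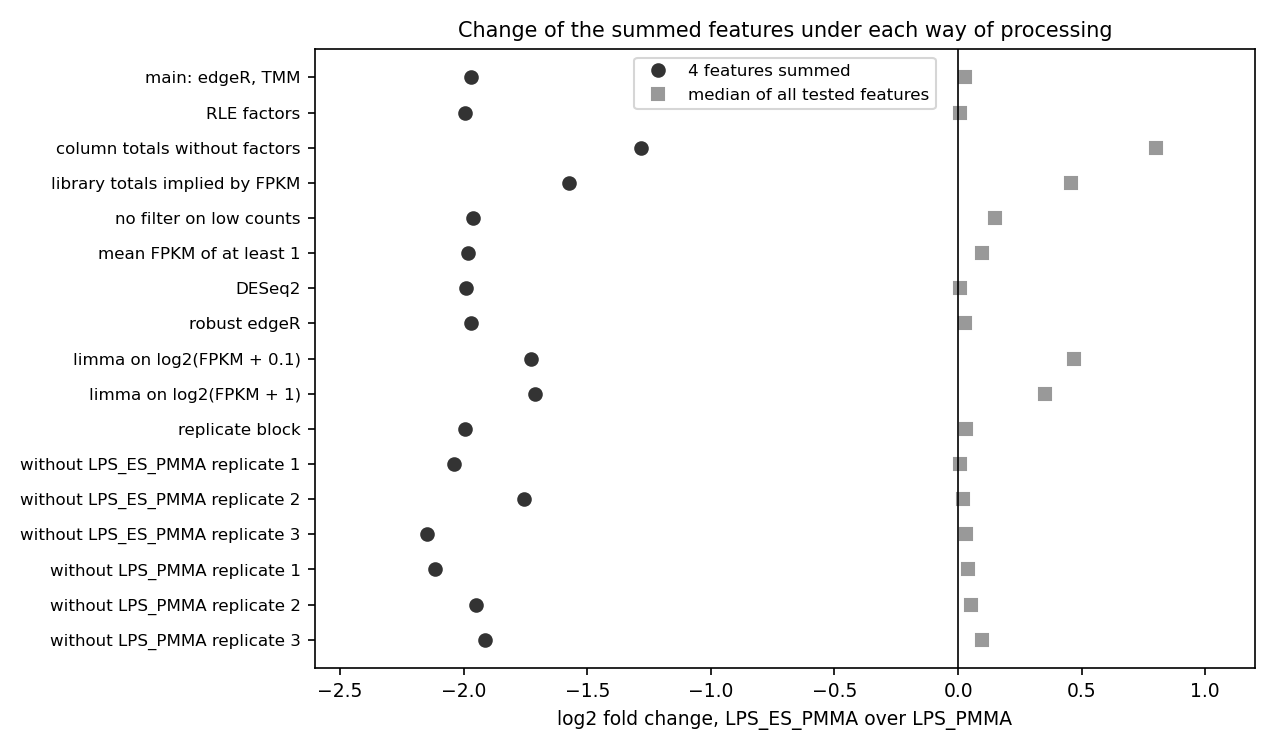
Fitted log2 fold change of LPS_ES_PMMA over LPS_PMMA (x axis) for the sum of the 4 features (circles) and the median of all tested features (squares) under each way of processing (rows). The sum lies between -2.15 and -1.28 and the median at or above 0 in every row. In the limma rows the sum is of FPKM, and in the others of counts.

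Per length, the order of the features was the same in the group means of both treatments. In LPS_ES_PMMA the mean level was 36.9 ± 9.37 FPKM for NONMMUT123372.1, 7.98 ± 3.79 for ENSMUST00000201976, 6.14 ± 2.40 for NONMMUT123377.1 and 0.844 ± 0.288 for ENSMUST00000202514 (SD, n = 3). ENSMUST00000201976 and NONMMUT123377.1 did not differ beyond their spread, and in LPS_ES_PMMA 2 their order was reversed, at 3.61 and 3.74 FPKM. In LPS_PMMA the means were 105 ± 40.0, 46.5 ± 1.58, 16.7 ± 5.20 and 2.72 ± 0.666 FPKM in the same order (SD, n = 3), with no overlap between neighbours. By mean FPKM over the 6 libraries the features ranked 317, 852, 1885 and 9550 among the 24817 listed, so all but ENSMUST00000202514 were among the more abundant lncRNAs of these cells. ENSMUST00000201976 varied little in FPKM among the LPS_PMMA libraries (46.3, 48.2 and 45.1), where NONMMUT123372.1 had 61.3, 114 and 140 FPKM. This depends on the scaling. In TMM-scaled CPM the same libraries had 68.3, 52.7 and 42.2 for ENSMUST00000201976, and 354, 490 and 513 for NONMMUT123372.1.

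The division of reads among the features also varied. NONMMUT123372.1 held 80.8, 82.3 and 83.2% of the reads of all 8 listed features of the interval in LPS_ES_PMMA 1 to 3, against 72.2, 77.2 and 81.8% in LPS_PMMA 1 to 3. These ranges overlapped. ENSMUST00000201976 held 4.62, 2.79 and 5.65% in LPS_ES_PMMA, with exact (Clopper-Pearson) 95% intervals of 3.16 to 6.49, 1.03 to 5.97 and 3.82 to 8.02%. In LPS_PMMA it held 13.9, 8.31 and 6.73%, with intervals of 11.8 to 16.2, 7.01 to 9.76 and 5.60 to 8.01%. The share of ENSMUST00000201976 was thus lower in each LPS_ES_PMMA library than in any LPS_PMMA library. The counting intervals of several libraries overlapped, and they cover counting error only. No such comparison was made over other features, and these features were chosen with their values known. How reads in shared exons were assigned is not stated, and a change in splicing was not tested. NONMMUT123377.1 averaged 7.65 ± 1.07% of reads in LPS_ES_PMMA and 7.19 ± 0.313% in LPS_PMMA, and ENSMUST00000202514 averaged 1.11 ± 0.225% and 1.24 ± 0.138% in the same groups (SD, n = 3 each), differences within the spread between replicates.

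**Figure D4:**
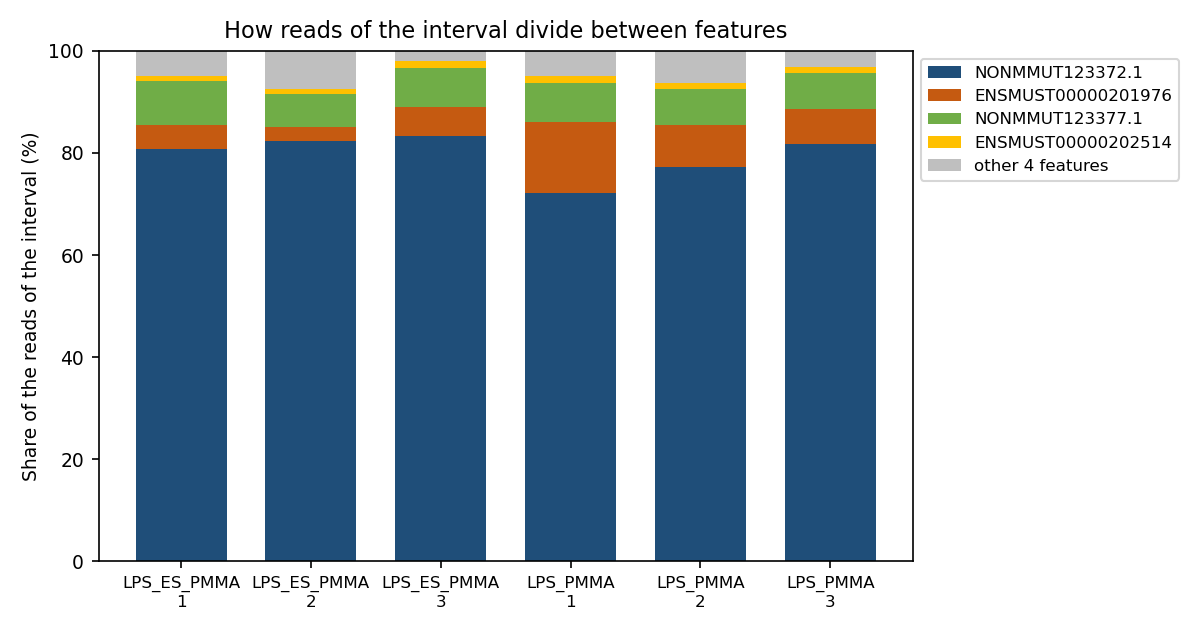
Percent of the reads of the 8 listed features of the interval (y axis) held by each of the 4 features and by the other 4 together, stacked to 100% in each library, with LPS_ES_PMMA left of LPS_PMMA. ENSMUST00000201976 holds 2.79 to 5.65% in LPS_ES_PMMA and 6.73 to 13.9% in LPS_PMMA, whereas the shares of the 5′ features overlap between the groups.

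For each read of ENSMUST00000201976 there were 17.5, 29.5 and 14.7 reads of NONMMUT123372.1 in LPS_ES_PMMA 1 to 3, against 5.19, 9.30 and 12.2 in LPS_PMMA 1 to 3. These ratios restate the shares above for features chosen with their values known, and no other pairs of features were compared. The nearest libraries were not far apart (14.7 in LPS_ES_PMMA 3 and 12.2 in LPS_PMMA 3). The reads of NONMMUT123377.1 per read of ENSMUST00000202514 came to 8.29, 7.0 and 5.71 in LPS_ES_PMMA 1 to 3, against 5.36, 5.84 and 6.25 in LPS_PMMA 1 to 3, and these overlapped. Over the 6 libraries the log2 levels of the 4 features correlated with Pearson r of 0.955 to 0.990, a description over points that share libraries, exons and the group difference.

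The interval holds 4 other listed features, and all 4 were named. NONMMUT121732.1 lies wholly within NONMMUT123372.1 but is listed in the sense of Gm43198, on the opposite strand; it had 0, 3 and 0 reads in LPS_ES_PMMA 1 to 3, against 13, 23 and 14 in LPS_PMMA 1 to 3. Its fitted log2 fold change of -4.11 (SE 0.94) depends on the prior count and did not pass in edgeR's quasi-likelihood test (adjusted p = 0.0524); without LPS_ES_PMMA 2, which held its 3 reads, the adjusted p was 0.0478. Since no strand setting is stated, its reads and those of NONMMUT123372.1 cannot be told apart. NONMMUT055555.2 had 26, 11 and 6 reads in LPS_ES_PMMA, against 33, 67 and 30 in LPS_PMMA, or 4.64 ± 2.29 and 17.8 ± 7.89 CPM (SD, n = 3 each). Its log2 fold change was -1.93 (SE 0.50; edgeR adjusted p = 0.0748). By DESeq2 the adjusted p was 0.00504 for NONMMUT121732.1 and 0.0263 for NONMMUT055555.2, and over all alternatives it was 0.00504 to 0.194 for NONMMUT121732.1 and 0.0263 to 0.276 for NONMMUT055555.2. ENSMUST00000201831, a longer Gm20559 transcript of 2993 nt that contains all exonic bases of ENSMUST00000201976, had too few reads to test, namely 6, 1 and 3 in LPS_ES_PMMA, against 3, 12 and 10 in LPS_PMMA. NONMMUT123374.1 had 1 read in each library.

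**Figure D5:**
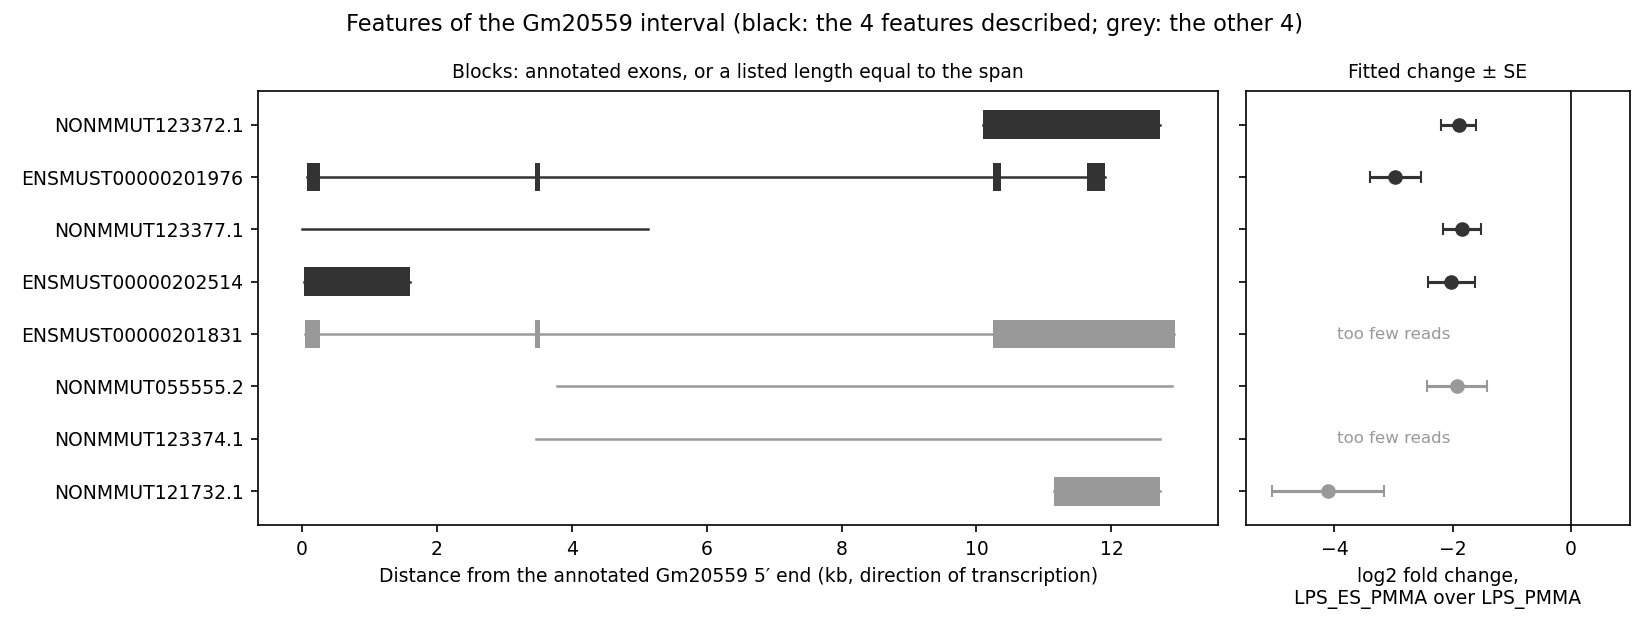
Left, extent of the 8 listed features by distance from the 5′ end of Gm20559 in kb (x axis), with blocks for annotated exons or for a listed length equal to the span, and lines for spans; right, fitted log2 fold change of LPS_ES_PMMA over LPS_PMMA with its SE. The fitted changes of the 4 features described (black) range from -2.97 to -1.84, and those of the 2 other features with enough reads (grey) are -1.93 and -4.11.

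Outside the interval, 14 further features were listed within 250 kb, of which 6 could be tested. None passed in edgeR, where 2 had an unadjusted p under 0.05, nor in DESeq2 (4 with an unadjusted p under 0.05) or in limma on either scale (0). The nearest on the left lie downstream of the 3′ end of Gm20559 in GENCODE but partly inside the longer RefSeq model, which runs from 3330738. NONMMUT123371.1, 1267 bp away, had 57, 9 and 22 reads in LPS_ES_PMMA, against 16, 71 and 76 in LPS_PMMA, and its groups overlapped (log2 fold change -1.26, SE 0.56, edgeR adjusted p = 0.237). NONMMUT123370.1, 2414 bp away, averaged 6.36 ± 0.945 CPM in LPS_ES_PMMA and 15.5 ± 4.62 CPM in LPS_PMMA (-1.29, SE 0.33, edgeR adjusted p = 0.0712; SD, n = 3 each).

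The transcript ENSMUST00000201762 of Gm43196, 5556 bp away, averaged 9.18 ± 1.78 CPM in LPS_ES_PMMA and 19.9 ± 4.86 CPM in LPS_PMMA (log2 fold change -1.11, SE 0.31, edgeR adjusted p = 0.0867; SD, n = 3 each). These 3 neighbours thus had lower values in LPS_ES_PMMA that did not pass the test. On the same side, NONMMUT123369.1, 5278 bp away, had too few reads to test. It had 6, 1 and 1 reads in LPS_ES_PMMA, against 11, 18 and 30 in LPS_PMMA. NONMMUT123367.1, 9582 bp away and also untested, leaned the other way, with 12, 14 and 4 reads in LPS_ES_PMMA, against 2, 2 and 4 in LPS_PMMA. Both were picked out after their values had been seen. On the Samd9l side, the nearest feature that could be tested was ENSMUST00000202850 of Gm43294, 237688 bp away within Vps50, with a log2 fold change of 0.04 (SE 0.38; edgeR adjusted p = 0.972). The stretch between Gm20559 and this feature held 1 other listed feature, NONMMUT055558.2, with reads in LPS_PMMA 3 alone.

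The 5 lncRNAs elsewhere in the genome with the most similar profile over the 6 libraries were found by the Pearson correlation of their log2 CPM with that of the summed features. They were NONMMUT038637.2 in an intron of Tspan18 (r = 0.999), NONMMUT039716.2 in an intron of Acoxl (0.997), NONMMUT145883.1 antisense to Plgrkt (0.996), MSTRG.56724.3 antisense to Tspan3 (0.995) and NONMMUT149643.1 antisense to Ankle2 (0.995). All were lower in LPS_ES_PMMA, with log2 fold changes of -1.04, -1.43, -1.0, -3.06 and -0.96 in the same order. MSTRG.56724.3 averaged 19.2 ± 7.08 CPM in LPS_ES_PMMA and 162 ± 15.6 CPM in LPS_PMMA (SD, n = 3 each). With 6 libraries in 2 groups, so high an r among the highest of 8873 features is a description of these libraries.

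As Samd9l is induced by interferon, features tied to 50 interferon-related genes were examined. For 23 of the genes 43 features were listed, and 14 could be tested: 7 fell and 3 rose in LPS_ES_PMMA and 4 did not pass (edgeR, adjusted over all features), against 4.76% called among all features. Their median log2 fold change was -0.82, and that of all tested features 0.03; with a replicate block 3 fell and 0 rose. The median of the listed features moved with the filter and the libraries: it was -0.03 over 26 features with a mean FPKM of at least 1 (0.10 over all features), -0.30 over all 43 (0.15) and -0.09 with column totals (0.80). Leaving out 1 library placed it between -2.06 (without LPS_ES_PMMA 3) and -0.60 (without LPS_PMMA 2). Without LPS_ES_PMMA 1, 2 and 3 in turn, 3, 4 and 4 features fell and 0, 1 and 0 rose; without LPS_PMMA 1, 2 and 3 in turn, 5, 3 and 6 fell and 1, 0 and 2 rose. The list was chosen with earlier results of these data known and is not independent evidence of a direction.

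NONMMUT084037.1, antisense to Slfn8, a Schlafen family gene, had 0, 0 and 6 reads in LPS_ES_PMMA 1 to 3, against 198, 311 and 220 in LPS_PMMA 1 to 3 (edgeR adjusted p = 0.0120). NONMMUT026433.2, an exonic sense feature of Parp14, an ADP-ribosyltransferase, fell to 15.7 ± 3.00 CPM in LPS_ES_PMMA, against 34.7 ± 1.61 CPM in LPS_PMMA (SD, n = 3 each; edgeR adjusted p = 0.0472). MSTRG.29280.1, antisense to Ifit2, whose product binds viral RNA, had 0, 2 and 0 reads in LPS_ES_PMMA, against 60, 61 and 40 in LPS_PMMA (edgeR adjusted p = 0.0106). NONMMUT034527.2 also fell; it lies near Ifit3b and is placed antisense in an intron of Ifit1bl2 by the table, and its log2 fold change was -4.31 (SE 0.37; edgeR adjusted p = 0.00279). In the other direction, NONMMUT106143.1, an intergenic feature near Ifit1, rose to 19.6 ± 3.00 CPM in LPS_ES_PMMA, against 4.21 ± 1.70 CPM in LPS_PMMA (SD, n = 3 each; edgeR adjusted p = 0.0188).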

How the data were processed

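RNA of 6 libraries of RAW264.7 cells was extracted with an RNeasy kit and built into SMARTER libraries, per the labels' protocols. The deposited table lists whole-number counts per lncRNA feature and FPKM, both made by the authors, per the file headers. The log2 fold changes, p-values and q-values in it are the authors' own, per the file headers; of these only the log2 fold changes were used. Aligner, counter, strand setting and treatment of multiply placed reads are not stated; the genome build was mm10, per the submitters' processing notes. The table has 0 unused columns of per-sample values.

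Features were kept by filterByExpr (minimum count 10, minimum total 15), scaled by TMM and compared with edgeR 4.0.16 (quasi-likelihood F-test, R 4.3.3), with Benjamini-Hochberg adjustment over 8873 features and a threshold of 0.05; limma 3.58.1 on log2(FPKM + 0.1) or log2(FPKM + 1), DESeq2 1.42.0, other scalings and filters, a replicate block and leaving out each library were alternatives. Libraries of a group differed by 15.4 to 45.5 times counting noise (chi-square per degree of freedom), so none was treated as the same library deposited again; this does not tell repeat preparations of 1 culture from separate cultures. Sequences came from GENCODE M21 transcripts and RefSeq promoters (GRCm38.p6), were aligned with Biopython 1.88 (match 2, mismatch -3, gap opening -5, extension -2) and compared with other transcripts by BLAST 2.17.0. The assembled features' positions were not used to tie them to genes. By those positions 0 of them lay within 1 Mb of the interval.

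The members and lists were chosen with earlier results of these data known. Features named were the 4, every other listed feature of the interval and the nearest tested features within 250 kb (at most 3 a side). Also named were the 5 with the highest Pearson r to the summed log2(CPM + 0.5). Up to 5 called interferon features were named by mean FPKM, tied by the table's gene column or within 10 kb. NONMMUT123369.1 and NONMMUT123367.1 were added after their values had been seen.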

Additional observations from a re-analysis of the deposited data

How the results depend on the processing

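Of 194 values recomputed under an alternative setting, 152 were judged the same, 37 moved, 5 newly passed the threshold, and 0 reversed. Counts of features were judged the same within 1.5-fold. Fold changes and shares of the 4 features were judged by the SD between replicates. For the other features of the interval only direction and side of the threshold were judged, not size. The number of features called over the whole table, 422 in the main analysis, was 174 with no filter on low counts, 192 with a mean FPKM of at least 1, 41 with the replicate block and 50 to 136 when 1 library was left out (54, 112 and 51 without LPS_ES_PMMA 1 to 3, and 136, 50 and 125 without LPS_PMMA 1 to 3). The split of higher against lower calls in LPS_ES_PMMA was 193 to 229 in the main analysis, 301 to 68 with column totals, 248 to 96 with implied totals, 207 to 90 and 415 to 133 by limma with a pseudocount of 0.1 and 1, 211 to 306 by DESeq2, 10 to 31 with the replicate block, and 64 to 110 with no filter. The replicate numbers come from the titles. Deviations of libraries with the same number correlated at -0.0172, -0.0292 and -0.0860, and no library correlated best with its own number. With 3 libraries in a group these correlations are not independent, so they cannot decide whether a number marks anything shared between the groups. The replicate block also left 3 interferon features called in place of 10, and leaving out 1 library left 3 to 8. With column totals the log2 fold changes were -1.21 (NONMMUT123372.1), -2.26 (ENSMUST00000201976), -1.16 (NONMMUT123377.1), -1.36 (ENSMUST00000202514) and -1.28 (sum). With implied totals they were -1.51, -2.51, -1.43, -1.61 and -1.58 in that order. Limma gave -1.46 (NONMMUT123372.1) and -1.60 (ENSMUST00000202514) with a pseudocount of 0.1, and -1.43, -1.32 (NONMMUT123377.1) and -1.01 (ENSMUST00000202514) with 1. NONMMUT055555.2 passed by DESeq2 (-1.96), and NONMMUT121732.1 by DESeq2 (-4.20), robust edgeR (-4.11, adjusted p = 0.0376) and limma with a pseudocount of 1 (-1.54, adjusted p = 0.0258). Leaving out 1 library gave -2.07 to -1.70 for NONMMUT123372.1, -3.33 to -2.63 for ENSMUST00000201976, -2.0 to -1.58 for NONMMUT123377.1, -2.33 to -1.80 for ENSMUST00000202514, -2.15 to -1.76 for the sum and -7.30 to -3.31 for NONMMUT121732.1. Taken from FPKM in place of counts, the mean shares in LPS_ES_PMMA and LPS_PMMA were 69.6 and 57.9% (NONMMUT123372.1), 14.3 and 27.8% (ENSMUST00000201976), 11.2 and 9.35% (NONMMUT123377.1), and 1.56 and 1.54% (ENSMUST00000202514). FPKM is a level per length, so its shares differ in kind from shares of reads. The cause of the other shifts was not tested.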

Other observations

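The feature pair NONMMUT150254.1 and NONMMUT121728.1, 131411 and 131667 bp to the left of the interval, overlap each other and were picked out after their values had been seen. NONMMUT150254.1 had 26, 239 and 82 reads in LPS_ES_PMMA 1 to 3, against 673, 243 and 51 in LPS_PMMA 1 to 3. NONMMUT121728.1 had 190, 720 and 231 reads in LPS_ES_PMMA, against 80, 84 and 251 in LPS_PMMA. Their fitted log2 fold changes had opposite signs, -1.53 (SE 1.17; edgeR adjusted p = 0.494) and 1.58 (SE 0.78; edgeR adjusted p = 0.284). Their summed level was 215 ± 236 CPM in LPS_ES_PMMA and 203 ± 145 CPM in LPS_PMMA (SD, n = 3 each), so the libraries of each group differed from one another more than the groups did.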
